A study of Mus musculus with 8 samples.

Results

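The 10 genes described here are Egr1, Egr2, Egr3, Nr4a1, Ier2, Klf2, Klf4, Klf6, Dusp1 and Zfp36, chosen by name as immediate early genes that cell isolation is known to induce. Each of the 10 matched 1 of the 43432 mouse gene identifiers in the deposited table, and each passed the filter on low counts that left 15422 genes. They were measured by RNA sequencing in lung myofibroblasts of postnatal day 7 mice on a C57BL/6 background. The libraries form a group of 4 labelled Fra-2 transgenic, from mice that express Fra-2 (the product of Fosl2) constitutively per the genotype label, and a group of 4 wildtype control libraries. The promoter that drives the transgene, the number of animals behind a library and the way the cells were isolated are not given in the labels. No library of cells left in the tissue was analysed here, so whether isolation set the levels of these genes was not tested.

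Immediate early genes are switched on within minutes of a stimulus by factors that are already present in the cell, so that no new protein has to be made first. Growth factors, stretch, stress and the enzymatic dissociation of tissue reach them through MAP kinases, which act on serum response factor with its Elk partners and on CREB. Several of their products are transcription factors, and others, such as Dusp1 and Zfp36, shut the response down again.

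Total counts were 29926239 to 38954848 per Fra-2 transgenic-labelled library and 31986025 to 41335957 per control library. Levels are given as CPM, the count relative to the scaled library size, and log2 fold changes as Fra-2 transgenic over control with their standard error (SE). Both sexes were present in each group, and Fra-2 1, Fra-2 3, control 2 and control 3 were read as female by Xist and Y-linked genes. Fosl2 had 166, 134, 126 and 104 CPM in Fra-2 1 to Fra-2 4, against 105, 117, 141 and 119 CPM in control 1 to control 4. The groups overlapped and its log2 fold change was 0.14 (SE 0.136, adjusted p = 0.888 by edgeR) and 0.0128 without Fra-2 1, so the group names below follow the labels and not a measured rise of Fosl2. Summed over 15 myofibroblast markers, among them Acta2 and Pdgfra, the level was 31780 to 33960 CPM in the Fra-2 transgenic-labelled libraries and 30400 to 32640 CPM in the control libraries. All 15 were detected. Because each group held libraries read as female and as male, its libraries did not all come from the same animal or pool. Whether libraries of the same sex came from separate animals is not stated. The p-values therefore rest on variation among libraries, part of which may be technical, and the size of that part was not tested.

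The 10 genes spanned a wide range of levels, with Egr1 among the most abundant transcripts of these cells and Egr3 at 31 to 95 counts per library. To compare genes, levels were divided by the length of the merged exons of all annotated transcripts. For Zfp36 these cover the whole span of the gene, so values per kilobase depend on the annotation. Per kilobase of merged exon, mean CPM over the 8 libraries was 896 for Egr1, 333 for Dusp1, 210 for Zfp36 and 92.2 for Nr4a1. It was 35.4 for Klf6, 30.3 for Klf4, 25.8 for Egr2 and 21.1 for Ier2, and then 2.01 for Klf2 and 0.365 for Egr3. The ranges over the 8 libraries did not overlap between Egr1 and Dusp1, Zfp36 and Nr4a1, Nr4a1 and Klf6, Ier2 and Klf2, or Klf2 and Egr3. They did overlap between the neighbours Dusp1 and Zfp36, although Dusp1 was above Zfp36 in 8 of 8 libraries. Among Klf6, Klf4, Egr2 and Ier2 the ranges of neighbours also overlapped, and Klf6 was above Klf4 in 6 of 8 libraries. In CPM not divided by length, Egr1 stood at percentile 99.9 of the tested genes, Dusp1 at 99.3, Zfp36 at 98.9 and Nr4a1 at 96.8. Klf6, Klf4 and Egr2 stood at percentiles 92.0, 85.9 and 85.4, Ier2 at 68.9, Klf2 at 32.5 and Egr3 at 22.3. Together the 10 genes took 0.634% to 0.716% of all counts in the Fra-2 transgenic-labelled libraries and 0.559% to 0.773% in the control libraries.

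None of the 10 genes passed the test between the groups, and for each of them the groups overlapped. Across all tested genes 157 of 15422 passed (1.02%), 111 higher and 46 lower in the Fra-2 transgenic-labelled libraries, by edgeR's quasi-likelihood F-test at an adjusted p of 0.05. Groups that did not overlap in CPM were found for 889 genes (5.76%). DESeq2 and limma-voom also called 0 of the 10. At an unadjusted p of 0.05, 1 of the 10 (Klf2) and 1343 of 15422 tested genes fell below the threshold in the edgeR fit. The median log2 fold change was 0.096 over the 10 genes, of which 6 were positive. It was -0.012 over all tested genes, of which 7377 of 15422 were positive.

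The EGR factors are zinc finger transcription factors that bind GC-rich sites, and Egr1 is the member of the family most widely induced by growth factors and stress. Egr1 (build GRCm38, chromosome 18, positions 34859823 to 34864984, plus strand) had 4246, 4206, 4383 and 4008 CPM in Fra-2 1 to Fra-2 4, against 3328, 3695, 4654 and 3612 CPM in control 1 to control 4. The Fra-2 transgenic-labelled libraries lay within a narrow band above 3 of the 4 control libraries, and control 3 was above all of them. The means were 4211 ± 155 CPM in the Fra-2 transgenic-labelled libraries and 3822 ± 576 CPM in the control libraries (SD, n = 4 each), a log2 fold change of 0.14 (SE 0.109, adjusted p = 0.829 by edgeR). Egr2, known from the hindbrain and myelinating Schwann cells (chromosome 10, positions 67535475 to 67542188, plus strand), had 79.2, 109, 99.7 and 79.2 CPM in Fra-2 1 to Fra-2 4. In control 1 to control 4 it had 72.9, 77.6, 101 and 83.7 CPM. Its highest libraries were Fra-2 2, control 3 and Fra-2 3, its groups overlapped, and the log2 fold change was 0.13 (SE 0.133, adjusted p = 0.892 by edgeR). Over left-out libraries it was 0.0383 (without Fra-2 2) to 0.24 (without control 3). Egr3, a relative known from muscle spindles and T cells (chromosome 14, positions 70077203 to 70082614, plus strand) had 1.59, 1.72, 1.42 and 0.822 CPM in Fra-2 1 to Fra-2 4, against 1.77, 1.26, 3.001 and 1.29 CPM in control 1 to control 4. These levels rest on 31 to 95 counts per library, and control 3 alone was far above the other 7 libraries. The log2 fold change of -0.40 (SE 0.394, adjusted p = 0.887 by edgeR) had an interval of 0.422 to 1.36 as a fold. It was -0.05 without control 3 and -0.21 without Fra-2 4, so most of it rested on those libraries.

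Nr4a1 (Nur77), an orphan nuclear receptor (chromosome 15, positions 101254269 to 101274795, plus strand), had 353, 385, 346 and 251 CPM in Fra-2 1 to Fra-2 4. In control 1 to control 4 it had 272, 321, 361 and 299 CPM. Both its highest and its lowest library, Fra-2 2 and Fra-2 4, were labelled Fra-2 transgenic, and the log2 fold change was 0.09 (SE 0.132, adjusted p = 0.935 by edgeR). It was 0.0177 without Fra-2 2 and 0.21 without Fra-2 4. Ier2, a nuclear protein encoded by a gene with 1 exon (chromosome 8, positions 84661331 to 84662852, minus strand), had 33.4, 31.1, 34.5 and 25.3 CPM in Fra-2 1 to Fra-2 4. In control 1 to control 4 it had 31.7, 32.3, 39.8 and 28.4 CPM. Control 3 was highest and Fra-2 4 lowest, the groups overlapped, and the log2 fold change was -0.09 (SE 0.140, adjusted p = 0.941 by edgeR). Without control 3 it was 0.0169 and without Fra-2 4 it was -0.001, so its sign rested on single libraries.

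The KLF factors, zinc finger proteins that bind GC-rich and CACCC sites, included the member with the largest difference between groups. Klf2, best known from endothelium under flow (chromosome 8, positions 72319033 to 72321656, plus strand), had 3.55, 3.34, 2.08 and 1.96 CPM in Fra-2 1 to Fra-2 4. In control 1 to control 4 it had 4.29, 6.76, 5.15 and 2.62 CPM. Control 1 to control 3 were above every Fra-2 transgenic-labelled library, while control 4 lay among them, and all 8 values rest on 66 to 237 counts. The log2 fold change was -0.78 (SE 0.314), or 0.581-fold with a 95% interval of 0.365 to 0.926, with an unadjusted p of 0.0256 and an edgeR adjusted p of 0.447. Across the alternatives of scaling, filter, test and libraries the adjusted p was 0.161 to 0.858. The summed level of 12 endothelial markers was 382 to 455 CPM in the Fra-2 transgenic-labelled libraries and 312 to 383 CPM in the control libraries, with all 12 detected. Of these sums Eng alone made up 267 to 350 CPM in the Fra-2 transgenic-labelled libraries and 216 to 278 CPM in the control libraries, and the sums of the other 11 overlapped (101.5 to 117 CPM in the Fra-2 transgenic-labelled libraries and 80.9 to 114 CPM in the control libraries). The part of these markers in the Klf2 values was not tested, and in bulk libraries fewer cells of a type and less RNA per cell cannot be told apart.

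Klf4, one of the reprogramming factors (chromosome 4, positions 55527143 to 55532466, minus strand), had 83.0, 107, 110 and 85.3 CPM in Fra-2 1 to Fra-2 4. In control 1 to control 4 it had 87.6, 93.5, 115 and 58.7 CPM. Both the highest library, control 3, and the lowest, control 4, were control libraries, and the log2 fold change of 0.12 (SE 0.172, adjusted p = 0.936 by edgeR) was -0.0353 without control 4 and 0.27 without control 3. Klf6, a widely expressed member of the family (chromosome 13, positions 5861482 to 5870394, plus strand), had 128, 151, 145 and 162 CPM in Fra-2 1 to Fra-2 4, against 149, 167, 189 and 154 CPM in control 1 to control 4. Control 3 was again highest and Fra-2 1 lowest, the groups overlapped, and the log2 fold change was -0.17 (SE 0.108, adjusted p = 0.752 by edgeR), or -0.10 without control 3 and -0.11 without Fra-2 1.

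Dusp1 and Zfp36 encode the attenuators of the response. Dusp1 is a phosphatase that inactivates MAP kinases (chromosome 17, positions 26505590 to 26562128, minus strand), and it had 1040, 1097, 1244 and 1180 CPM in Fra-2 1 to Fra-2 4. In control 1 to control 4 it had 881, 994, 1293 and 1089 CPM. Control 1 and control 2 were below every other library and control 3 was above every other, and the log2 fold change was 0.10 (SE 0.119, adjusted p = 0.916 by edgeR). It was 0.0229 without control 1 and 0.21 without control 3. The annotated span of Dusp1 overlaps Ergic1 on the opposite strand, which had 5198 to 8246 counts per library against 34459 to 44540 for Dusp1, and without strand information their reads in the overlap cannot be told apart. Zfp36 (tristetraprolin) binds AU-rich elements and promotes the decay of cytokine and early response transcripts (chromosome 7, positions 28376784 to 28380253, minus strand). It had 750, 731, 913 and 750 CPM in Fra-2 1 to Fra-2 4, against 474, 576, 1054 and 587 CPM in control 1 to control 4. Every Fra-2 transgenic-labelled library was above control 1, control 2 and control 4, and every one was below control 3. The means were 786 ± 85.1 CPM in the Fra-2 transgenic-labelled libraries and 673 ± 259 CPM in the control libraries (SD, n = 4 each), a log2 fold change of 0.22 (SE 0.209, adjusted p = 0.882 by edgeR). Without control 3 it was 0.53 (adjusted p = 0.107 by edgeR) and that of Egr1 was 0.25 (adjusted p = 0.534 by edgeR). Without control 1 they were 0.0923 for Zfp36 and 0.08 for Egr1, so both values moved with single control libraries, and neither passed.

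**Figure D1:**
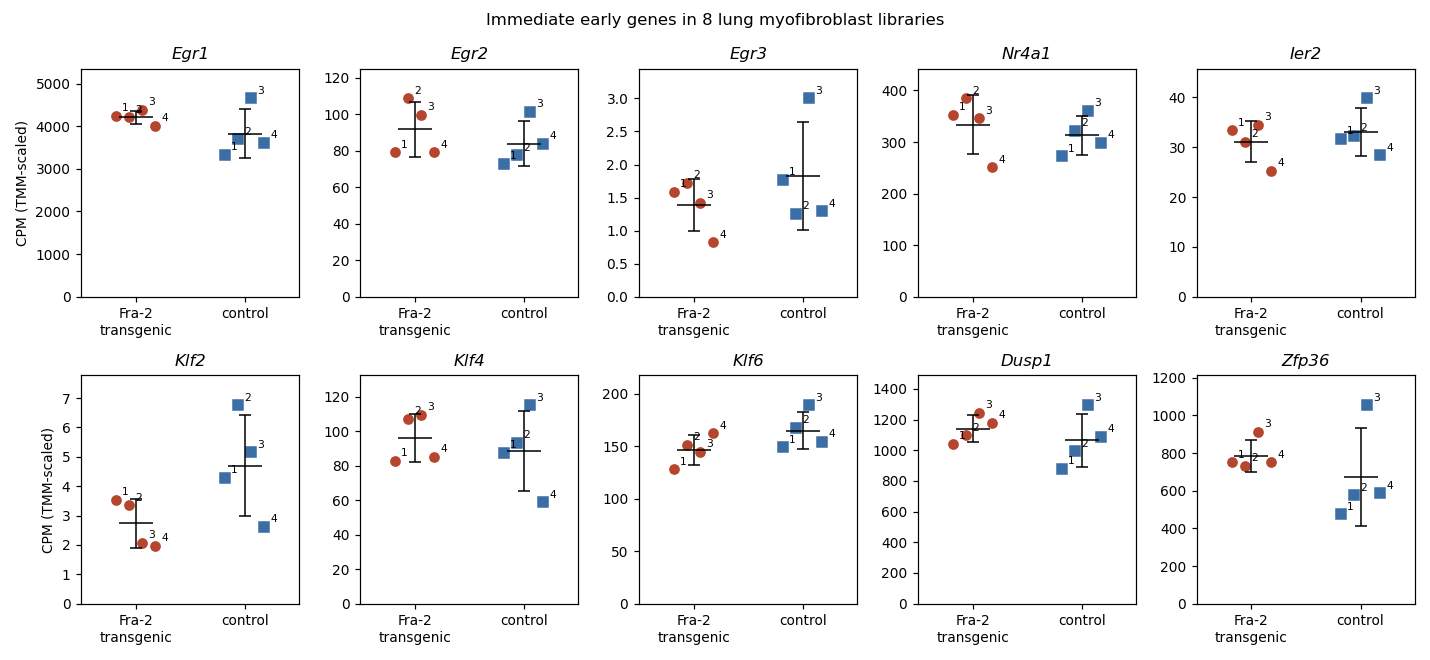
Level of each of the 10 genes in CPM (each panel with its own axis, starting at 0) in the Fra-2 transgenic-labelled libraries on the left and the control libraries on the right, with each point numbered by its library and bars for the mean ± SD of n = 4. Control 3 is the highest point in 7 of the 10 panels, and the groups overlap in all of them.

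**Figure D2:**
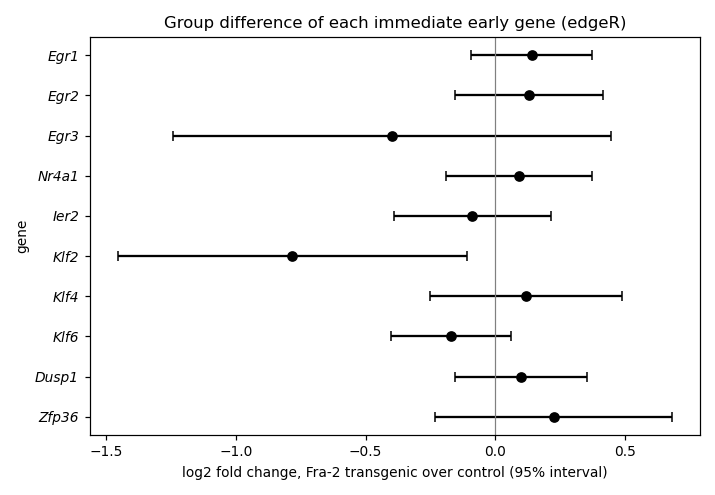
Log2 fold change of each of the 10 genes, Fra-2 transgenic over control, with its 95% interval from the edgeR fit. The interval of Klf2, 0.365 to 0.926 as a fold, is the only 1 of the 10 that does not include no difference, and its adjusted p was 0.447.

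The spread between libraries was below that of the median gene for 6 of the 10, while Zfp36 and Klf4 varied more than most genes of their level. The SD of log2 CPM over the 8 libraries was 0.162 for Egr1, 0.165 for Klf6, 0.180 for Dusp1, 0.193 for Ier2 and 0.214 for both Egr2 and Nr4a1, all 6 below the median of 0.283 over all tested genes. It was 0.310 for Klf4, 0.374 for Zfp36, 0.511 for Egr3 and 0.614 for Klf2. The ratio of the highest to the lowest library ran up to 3.65 for Egr3 from 1.40 for Egr1, and it was 2.22 for Zfp36. Abundant genes vary less, so the genes were also set among tested genes whose mean lay within 0.5 on the log2 scale. There the SD of Zfp36 was at percentile 96.6 of 149 genes and that of Klf4 at percentile 92.7 of 1455 genes. Klf2 was at percentile 83.6, Egr2 at 74.6 and Nr4a1 at 74.0. Klf6 (54.0), Dusp1 (52.4), Ier2 (48.5), Egr3 (42.8) and Egr1 (35.7, among 14 genes only) were in the middle or lower part of their levels. For Egr3 the SD that counting alone would give was 0.20, and for Klf2 it was 0.14. The SD of log2 CPM of Zfp36 was 0.149 within the Fra-2 transgenic-labelled libraries and 0.498 within the control libraries, and that of Egr1 was 0.0535 within the Fra-2 transgenic-labelled libraries and 0.207 within the control libraries.

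**Figure D3:**
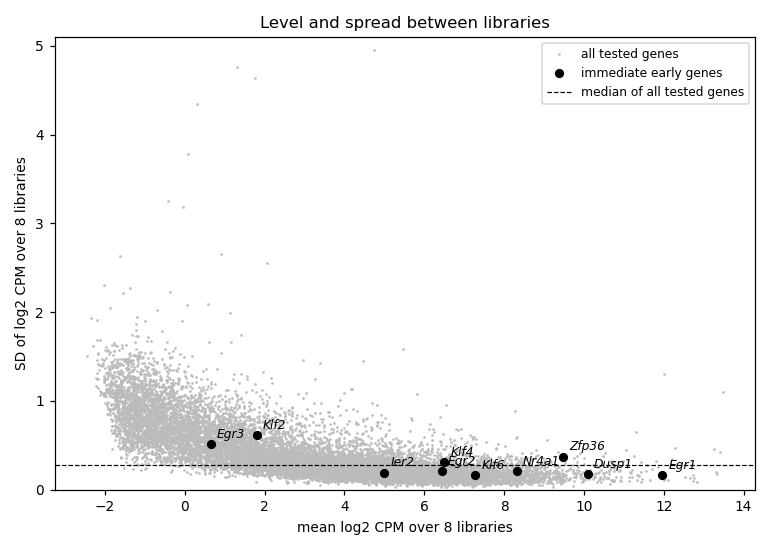
SD of log2 CPM over the 8 libraries (vertical axis) against mean log2 CPM (horizontal axis) for all tested genes, with the 10 genes marked. Zfp36 and Klf4 lie near the upper edge of genes of their level, at percentiles 96.6 and 92.7, and Egr1 lies at the far right among few genes.

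The 10 genes tended to be high and low in the same libraries, with control 3 at the top. Control 3 was the highest library for 7 of the 10 genes and among the highest 2 for 10 of 10, whereas 6.95% of all tested genes were highest in control 3. Fra-2 2 was highest for Egr2 and Nr4a1, and control 2 for Klf2. Control 1 was lowest for 4 genes (Egr1, Egr2, Dusp1 and Zfp36) and Fra-2 4 for another 4 (Egr3, Nr4a1, Ier2 and Klf2). As the mean of the standardised log2 CPM of the 10 genes, the Fra-2 transgenic-labelled libraries had -0.11, 0.40, 0.38 and -0.59. The control libraries had -0.68, -0.10, 1.34 and -0.64, so both the highest and the lowest library were controls. The lowest libraries, control 1, control 4 and Fra-2 4, were read as male and control 3 as female. Fra-2 2, the second highest, was also read as male. The part of sex in these values was not tested. Control 3 was above the mean for 10 of 10 genes and control 4 below it for 10 of 10, although by under 0.01 on the log2 scale for Klf6 and Dusp1 in control 4. Control 3 also had the highest share of counts from the 8 mitochondrially encoded protein genes with counts (another 5 of 13 are listed at 0 in all 8 libraries), 5.12% against 2.70% to 4.85% in the other 7 libraries, and the highest summed level of 5 red cell markers, 141 CPM against 17.2 to 86.6 CPM. Its summed immune markers (102 CPM) lay within the range of the others and its epithelial markers (142 CPM) did too. The next highest mitochondrial shares were 4.85% in Fra-2 4 and 4.31% in control 4, where the mean of the 10 genes was -0.59 and -0.64. The median r of the 10 genes was 0.06 with these mitochondrial genes and 0.22 with the red cell markers. The part of these shares and markers in the level of the 10 genes in control 3 was not tested.

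**Figure D4:**
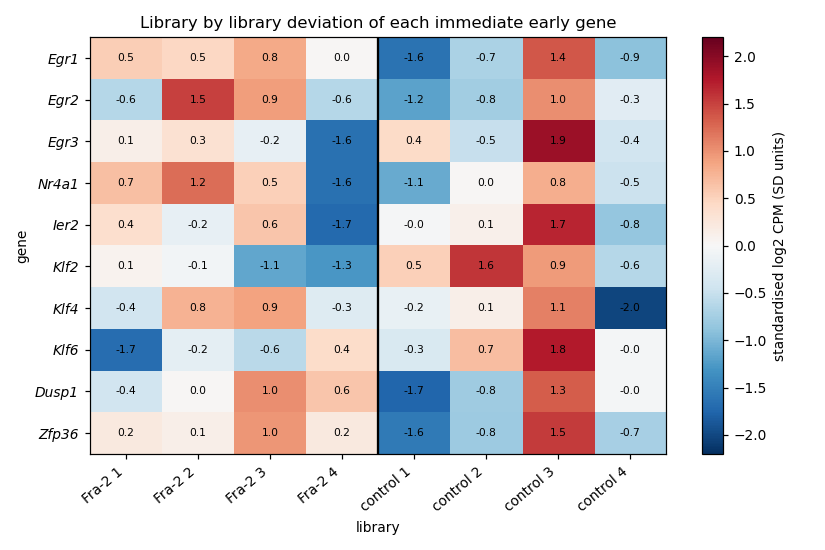
Standardised log2 CPM of each of the 10 genes (rows, deviation from its mean over the 8 libraries in units of its SD) in each library (columns, Fra-2 transgenic-labelled libraries left of the control libraries). The column of control 3 is above the mean for 10 of 10 genes and that of control 4 below it for 10 of 10, while the other 6 columns hold both directions.

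Of the 45 pairs of these genes, 40 were positively correlated across the 8 libraries in log2 CPM (88.9%, against 49.8% of all pairs of tested genes). The median Pearson r was 0.462, against -0.0019 for all pairs of tested genes, and the pairs ran from -0.404 to 0.975. A median r of this size was not particular to the 10 genes. Within other lists it was 0.452 for the AP-1 genes described below (97.8% of pairs positive), 0.729 for adventitial fibroblast markers and 0.959 for red cell markers. It was 0.197 for the further early response genes and -0.158 for pericyte markers. For the 45 pairs of the 10 genes the median r fell to 0.223 without control 3, so much of the shared variation rested on that library. With group means removed the median r was 0.558, and with the means of the sexes removed it was 0.370, while 4 libraries per group or sex are too few for r within each.

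The tightest pair was Egr1 and Zfp36, with r = 0.975 (exact permutation p = 0.000223, Benjamini-Hochberg adjusted over the 45 pairs p = 0.01). Spearman's rho was 0.952 (exact permutation p = 0.00114, adjusted p = 0.0513), and r was 0.954 without the 2 libraries farthest from the median of Egr1 and 0.967 without control 3. Dusp1 and Zfp36, the attenuators, followed with r = 0.921 (exact permutation p = 0.00179, adjusted p = 0.0402) and rho = 0.857 (exact permutation p = 0.0107, adjusted p = 0.241). Their r was 0.773 without the 2 farthest libraries. These were the only 2 of the 45 pairs past an adjusted p of 0.05 by r, and 0 passed by rho. By r, 8 pairs had an unadjusted exact permutation p under 0.05. Leaving out Fra-2 3, control 1 or control 3 left neither pair past the threshold, with adjusted p-values for Egr1 and Zfp36 of 0.0804, 0.0982 and 0.0804. Without Fra-2 2, Fra-2 4 or control 2, the r of Dusp1 and Zfp36 was 0.922, 0.931 and 0.913 and its adjusted p 0.0875, 0.0759 and 0.0774. With group means removed r was 0.974 and 0.913 for these pairs, with an adjusted p of 0.234 for both, in a test whose smallest unadjusted p is 0.00174. Egr1 and Dusp1 had r = 0.841 (exact permutation p = 0.0093, adjusted p = 0.14; rho = 0.786, exact permutation p = 0.0279, adjusted p = 0.314).

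Egr3 and Ier2 had r = 0.873 (exact permutation p = 0.0135, adjusted p = 0.152), but rho was 0.548 (exact permutation p = 0.171, adjusted p = 0.453) and r was 0.171 without the 2 libraries farthest from the median of Egr3. Their relation thus rested on those libraries, control 3 with the highest Egr3 and Fra-2 4 with the lowest. Across all libraries Klf2 and Klf6 stood most apart, with a median r with the other 9 genes of 0.246 and 0.257, whereas Egr1 had 0.621 and Egr2 0.592. With group means removed, Klf6 had r of 0.722 with Dusp1, 0.637 with Zfp36, 0.576 with Egr1, 0.537 with Klf4 and 0.51 with Egr2. Its r was then 0.104 with Egr3, 0.0841 with Ier2, 0.0447 with Nr4a1 and 0.0267 with Klf2. Klf2 had a negative r in 4 of its 9 pairs, with Egr1, Egr2, Dusp1 and Zfp36, and these were 4 of the 5 negative pairs. The fifth was Nr4a1 and Klf6, with r = -0.08 (exact permutation p = 0.86, adjusted p = 0.86; rho = -0.07). Klf2 and Dusp1 had the lowest r of all pairs, -0.404 (exact permutation p = 0.322, adjusted p = 0.569; rho = -0.405). With group means removed, the r of Klf2 was 0.253 with Egr1, 0.0653 with Egr2, 0.0603 with Zfp36 and -0.266 with Dusp1.

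**Figure D5:**
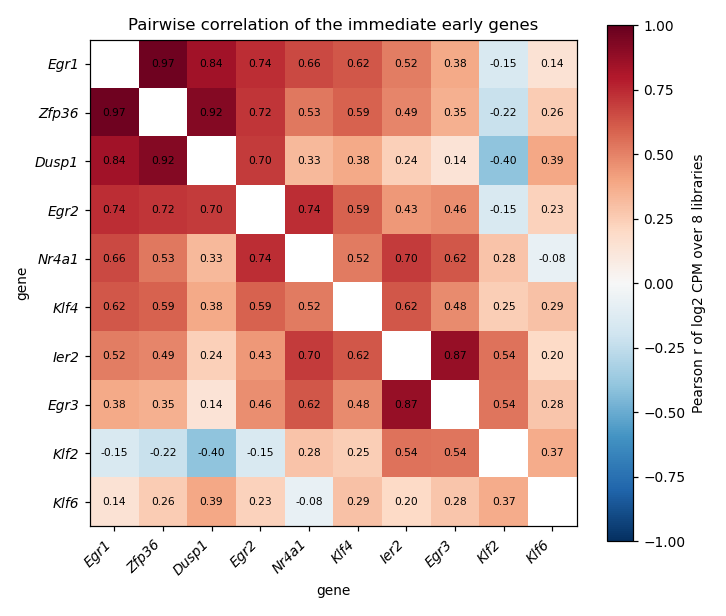
Pearson r across the 8 libraries for each of the 45 pairs of the 10 genes, in log2 CPM. Egr1, Zfp36 and Dusp1 form the strongest block, with r of 0.841 to 0.975, and the negative values lie mostly in the row of Klf2.

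Promoter sequence is shown for the attenuators, which carried the tightest pairs together with Egr1, and for Nr4a1 and Egr2, the members that were highest in Fra-2 2. RefSeq windows from 250 bases before to 50 bases after a start (build GRCm38.p6) were at hand for 7 of the 10 genes, and the stretches printed here lie before the start. Capitals mark a CArG box (CC, 6 A or T, GG; the site of serum response factor), a cAMP response element (TGACGTCA) or its core (TGACG, or CGTCA on the other strand), and an EGR site (GCGGGGGCG or GCGTGGGCG, on either strand). The Dusp1 stretch is chr17:26508520-26508722 on the minus strand, the Zfp36 stretch chr7:28379267-28379296 on the minus strand, the Nr4a1 stretch chr15:101266596-101266845 on the plus strand and the Egr2 stretch chr10:67537619-67537868 on the plus strand. Outside annotated exons lie those of Dusp1, Nr4a1 and Egr2. Each of the stretches nevertheless lies within the annotated span of its gene, which begins farther upstream. The Zfp36 window lies within an annotated exon of another transcript of the gene, and only the bases around its CArG box are given.
Dusp1: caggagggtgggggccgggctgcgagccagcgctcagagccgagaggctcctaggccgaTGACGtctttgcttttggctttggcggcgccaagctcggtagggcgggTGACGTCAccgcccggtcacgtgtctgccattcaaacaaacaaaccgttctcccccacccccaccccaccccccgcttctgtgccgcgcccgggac
Zfp36: ccaggccgccCCATAAAAGGagaaagctcc
Nr4a1: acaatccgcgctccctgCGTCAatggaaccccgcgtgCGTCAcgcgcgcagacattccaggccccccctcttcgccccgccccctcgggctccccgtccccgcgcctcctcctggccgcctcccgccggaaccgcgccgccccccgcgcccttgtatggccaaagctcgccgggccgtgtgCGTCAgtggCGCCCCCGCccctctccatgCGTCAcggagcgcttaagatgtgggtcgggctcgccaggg
Egr2: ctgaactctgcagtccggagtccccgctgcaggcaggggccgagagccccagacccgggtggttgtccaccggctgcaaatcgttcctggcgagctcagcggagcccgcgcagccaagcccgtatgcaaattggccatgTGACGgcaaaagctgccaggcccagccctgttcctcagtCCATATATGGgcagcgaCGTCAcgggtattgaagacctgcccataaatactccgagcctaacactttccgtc

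The Zfp36 stretch holds a CArG box at -58 to -49 from the start, and Egr2, which has 5 RefSeq windows of which 1 is shown, holds one at -72 to -63. A CArG box was found in windows of 2 of the 7 genes and in 1.63% of all 32851 windows. Here and below a gene was counted if any of its windows held the motif, while the percentages count windows. Egr2 was searched in 5 windows and the others in 1 each, so the 2 shares are not in the same unit. Dusp1 holds a full cAMP response element at -143 to -136, a motif found in 1.79% of all windows and in no other of the 7 genes. The core of this element, which every full one contains, occurred in Egr2, Nr4a1, Klf2, Klf4 and Dusp1 (5 of 7) and in 20.8% of all windows, and Nr4a1 had 4 copies. An EGR site, the sequence that the Egr1, Egr2 and Egr3 proteins bind, occurred in Nr4a1, Klf2, Klf4 and Zfp36 (4 of 7) and in 3.47% of all windows. GC boxes (GGGCGG), which can overlap an EGR site, were found in 7 of 7 genes and in 35.7% of all windows, and a TATA box (TATAAA) in 0 of 7 and in 13.6%. Both strands were searched, and a match describes letters only.

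The FOS and JUN genes of AP-1, which are induced with these genes, were listed together with Atf3, Maff and Mafk. Of the gene lists examined, this AP-1 list came closest to the 10 early genes in pattern. The r of its tested genes with the mean profile of the 10 early genes ran from 0.248 for Jund to 0.846 for Fosb. By edgeR none of the 10 tested AP-1 genes passed between the groups. Of them, 0 had an unadjusted edgeR p under 0.05, against 1343 of 15422 tested genes. Their median log2 fold change was 0.13, with 7 of 10 positive, against 7377 of 15422 tested genes. The median r of the 10 early genes with the AP-1 genes was 0.482. Fosb had 700, 864, 627 and 384 CPM in Fra-2 1 to Fra-2 4, against 314, 523, 804 and 355 CPM in control 1 to control 4, with a log2 fold change of 0.37 (adjusted p = 0.879 by edgeR). Control 3 and Fra-2 2 were thus high for Fosb, as for Egr2 and Nr4a1. Jun had 375, 473, 514 and 369 CPM in Fra-2 1 to Fra-2 4, against 319, 356, 448 and 324 CPM in control 1 to control 4, with a log2 fold change of 0.26 (adjusted p = 0.668 by edgeR). Among 9474 genes outside the 10 with a mean of at least 5 CPM, those with the highest r with the mean profile of the 10 were Rnf181 (0.929), Dennd1b (0.892), Klhl15 (0.887), Phactr1 (0.867), Fosb (0.846), Junb (0.844), Zfp91 (0.841), Rcc1 (0.840), Hoxb3 (0.836) and Cpeb4 (0.830). The lowest were Higd1a (-0.924), Ttc19 (-0.912), Ccnc (-0.904), Slc50a1 (-0.892) and Cbfa2t2 (-0.888). These r are descriptions over 8 libraries that share control 3 as their highest value for the profile.

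Of 47 tested further early response genes, such as Nr4a3, Ier3 and Btg2, 1 rose, 0 fell and 46 did not pass by edgeR, where 1.02% of all tested genes passed. At an unadjusted p under 0.05 there were 10 of the 47, against 1343 of 15422 tested genes. The one that rose was Dusp14, a phosphatase of the same family as Dusp1. It had 20.8, 14.1, 19.98 and 12.1 CPM in Fra-2 1 to Fra-2 4, against 7.07, 8.70, 8.72 and 10.9 CPM in control 1 to control 4, with no overlap between the groups. Its log2 fold change was 0.92 (adjusted p = 0.0439 by edgeR). The call was lost without Fra-2 1, Fra-2 3, control 1, control 2 or control 3, with adjusted p-values of 0.187, 0.175, 0.112, 0.139 and 0.133, while the log2 fold change was still 0.80, 0.83, 0.83, 0.92 and 0.92, and its adjusted p was 0.0644 by limma-voom. The median log2 fold change of these 47 genes was 0.22, with 35 of 47 positive, against 7377 of 15422 tested genes. Their median r with the 10 genes was 0.181, and 14.9% of them were highest in control 3.

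None of the 23 upstream kinases, transcription factors and Nab corepressors passed, and the median log2 fold change was 0.087. Of these, 3 had an unadjusted edgeR p under 0.05, against 1343 of 15422 tested genes. The groups did not overlap in CPM for Elk3, Mkl1, Mkl2 and Mef2d, as for 5.76% of all tested genes. The most abundant of the 23, Mef2a and Mef2d, had 278 ± 20.1 and 282 ± 35.5 CPM in the Fra-2 transgenic-labelled libraries, against 276 ± 32.9 and 223 ± 18.97 CPM in the control libraries (SD, n = 4 each). Their edgeR adjusted p-values were 0.995 and 0.248. Of 14 heat shock genes, which mark another arm of the stress response, 0 passed, and the median log2 fold change was -0.13. Among the 14, 1 had an unadjusted edgeR p under 0.05, against 1343 of 15422 tested genes. It was Bag3, whose log2 fold change of 0.25 went against the median of the list. The groups did not overlap for Dnajb1, as for 5.76% of all tested genes. Over the 14, r with the mean profile of the 10 early genes ran from -0.469 for Hsph1 to 0.542 for Bag3. Hsp90ab1, a constitutive chaperone, had 2745 ± 174 CPM in the Fra-2 transgenic-labelled libraries and 2821 ± 156 CPM in the control libraries (adjusted p = 0.961 by edgeR). Hspa8, another, had 224 ± 29.1 CPM in the Fra-2 transgenic-labelled libraries and 231 ± 32.2 CPM in the control libraries (adjusted p = 0.967 by edgeR). The median r of the 10 early genes was -0.03 with the upstream genes and 0.03 with the heat shock genes.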

How the data were processed

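RNA-seq of 8 mouse lung myofibroblast libraries was analysed. Per the labels' protocols, mRNA was isolated with oligo-dT beads from 50 ng of total RNA, cDNA was amplified (NuGEN Ovation RNA-Seq System V2), and Nextera XT was used for the libraries. No step that marks strand is named. Raw counts per gene were deposited as 1 table. Per the submitters' processing notes the build is GRCh38, a human build, while the identifiers are those of mouse genes, and for aligner, counter and annotation: not given in the sources used here.

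Counts were analysed in R 4.3.3 with edgeR 4.0.16 (filterByExpr with minimum count 10 and minimum total 15, TMM scaling, robust quasi-likelihood F-test, two-sided, Benjamini-Hochberg adjustment over 15422 tested genes at 0.05, common biological coefficient of variation 0.257, no covariate). The procedure was tested on simulated data. No pair of libraries within a group was alike within sampling noise, so each was counted separately. CPM are on TMM-scaled library sizes. Correlations use log2 CPM (prior count 2) with two-sided exact permutation over 40320 pairings, adjusted over the 45 pairs. Coordinates and exon lengths are those of GENCODE M21 (GRCm38), and promoters are those of RefSeq. The members, gene lists, named genes (of each list those past the threshold, otherwise the 2 most abundant) and alternatives were chosen with earlier results of these data known. The alternatives were other scaling (RLE, upper quartile, total count), other filters and prior counts, DESeq2 1.42.0, limma-voom 3.58.1, replicate number as a block, sex as a covariate, an adjusted p of 0.10 and leaving out each library. The SD from counting alone was computed from the counts of each gene in each library, with no allowance for the cDNA amplification. Intervals are 95%.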

Additional observations from a re-analysis of the deposited data

Results flagged for a closer look

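In groups of 4 libraries, 42 sets of values were examined for a library far from the other 3, a gap that chance flags in about 1 in 20. There were 2. Zfp36 had 913 CPM in Fra-2 3, its highest library labelled Fra-2 transgenic, while the other 3 of that group had 731 to 750 CPM, so the gap was 0.898 of the range of the group (critical value 0.829). Junb had 50.5 CPM in Fra-2 1, while the other 3 libraries labelled Fra-2 transgenic had 60.1 to 60.6 CPM, a gap of 0.95 of the range.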

How the results depend on the processing

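None of the 10 genes passed the test under any of the 19 alternatives, although the stricter filter tested 8 of them (Klf2 and Egr3 were left out as too low). Over all tested genes, DESeq2 called 272 higher and 97 lower, an adjusted p of 0.10 gave 73 lower, and leaving out 1 library each gave 50 to 153 higher and 22 to 52 lower. The log2 fold change of Ier2 was -0.15 to 0.0169 over left-out libraries, positive without control 3 only, and that of Klf4 was -0.0353 to 0.27, negative without control 4 only. The median r of the pairs was 0.223 to 0.528 over left-out libraries, the lowest without control 3, and 0.370 to 0.558 over the other alternatives. Pairs past an adjusted p of 0.05 numbered 0 to 2 over left-out libraries, 0 with group means removed and 0 by Spearman's rho, against 2 otherwise. With group means removed the smallest possible unadjusted exact permutation p is 0.00174. A single pair at that minimum would not pass after adjustment over the 45 pairs. The r of Egr1 and Zfp36 was 0.974 there and that of Dusp1 and Zfp36 was 0.913. The cause of the other changes was not tested. The deviations of same-numbered libraries from their group means correlated across genes with r of 0.00177, 0.219, 0.0797 and 0.31 for numbers 1 to 4. Libraries with different numbers gave r of -0.298 to 0.198. Control 2, control 3, control 4, Fra-2 2 and Fra-2 4 correlated best with their own number, and control 1, Fra-2 1 and Fra-2 3 did not. The match was partial, and the numbers were not taken to pair the libraries in the main fit. These values do not settle that choice, and whether numbers share a batch was not tested. With the replicate number as a block, 137 genes were higher and 53 lower, 0 of the 10 passed, Dusp14 had an adjusted p of 0.0764, and the median r of the residuals was 0.542. In that edgeR fit Klf2 and Zfp36 had unadjusted p-values of 0.01255 and 0.04123 (adjusted p = 0.2765 and 0.4696). With sex as a covariate 90 genes were higher and 34 lower, and Dusp14 had an adjusted p of 0.0599. Leaving out the mitochondrially encoded genes and removing block or sex means from the correlations were chosen after the data were seen. Depth limits Egr3 and Klf2, which rest on 31 to 95 and 66 to 237 counts per library.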
